A study of Sus scrofa with 6 samples.

Results

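Osteopontin, the product of SPP1, is a secreted phosphoprotein that was first known from bone matrix and is also made by activated macrophages. It binds cells through CD44, the receptor for hyaluronan, and through integrins. Macrophages of fat tissue that take up lipid are known for SPP1 together with TREM2, GPNMB, APOE and lysosomal genes, whereas CD163, MRC1 and CSF1R are widely carried by tissue-resident macrophages. SPP1, CD44 and 8 macrophage genes (CD68, CD163, CSF1R, MRC1, TREM2, GPNMB, APOE and C1QA) were described in the longissimus dorsi (LD) muscle of Laiwu pigs. They make up 10 of 31908 Ensembl genes listed, each with 1 gene ID. SPP1 was picked because it had the largest increase in pigs of high intramuscular fat (IMF) content, so its difference between the groups is given as a description without a test. The other 9 genes were listed as its receptor and as macrophage genes.

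RNA came from the LD, a long back muscle, of 3 pigs with high IMF content (S-H: LW63, LW70 and LW119) and 3 pigs with low IMF content (S-L: LW82, LW88 and LW90). All 6 were castrated males of the Laiwu breed, a fatty breed of North China, and were selected from the extremes of a larger group. The study names no transgene and no treatment. Each pig gave 1 library, so a pig is 1 replicate, and pieces of whole muscle hold fibres, fat cells, vessels and immune cells together. A lower number of cells of 1 type and less RNA per cell cannot be told apart in such samples.

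Expression is given in FPKM, fragment numbers scaled by transcript length and by the mapped fragments of the library, summed over the transcripts of a gene, so that levels of different genes are per length. The read depth behind single values is unknown here, because FPKM gives no counts. Differences between the groups are log2 fold changes of FPKM + 0.1 from limma, with S-H minus S-L, which understate the change of weakly expressed genes. A gene was called at an unadjusted p below 0.01 with a log2 fold change of 1 or more in either direction. By this rule 204 of 16333 tested genes were called (1.25%), with 152 higher in S-H (0.931%) and 52 lower (0.318%). With median-ratio size factors the split was 89 higher and 88 lower, and with TPM it was 252 higher and 37 lower. After Benjamini-Hochberg adjustment in limma 0 genes had a p below 0.05 (lowest 0.179), while 1217 had an unadjusted p below 0.05 (7.45%). In the other settings the number with an adjusted p below 0.05 lay between 0 and 10. Over all tested genes the median log2 fold change was 0.19, and 0.02 with these size factors. The muscle label was borne out by CKM, the creatine kinase of muscle, at 1985 to 3939 FPKM, and TNNT3, a troponin of fast fibres, at 1671 to 4437 FPKM.

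SPP1 (ENSSSCG00000009216) lies on chromosome 8 from 131077786 to 131085340 of Sscrofa11.1. Its level was 96.8 FPKM in LW63, 19.0 FPKM in LW70 and 123.1 FPKM in LW119 of the S-H group. It was 1.65 FPKM in LW82, 15.9 FPKM in LW88 and 0.556 FPKM in LW90 of the S-L group. The groups did not overlap, but LW70 and LW88 stood close to each other, and the highest pig had 221.5 times the level of the lowest. On average S-H pigs held 79.7 ± 54.1 FPKM (SD, n = 3) while S-L pigs held 6.04 ± 8.57 FPKM (SD, n = 3), a ratio of 13.2.

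**Figure D1:**
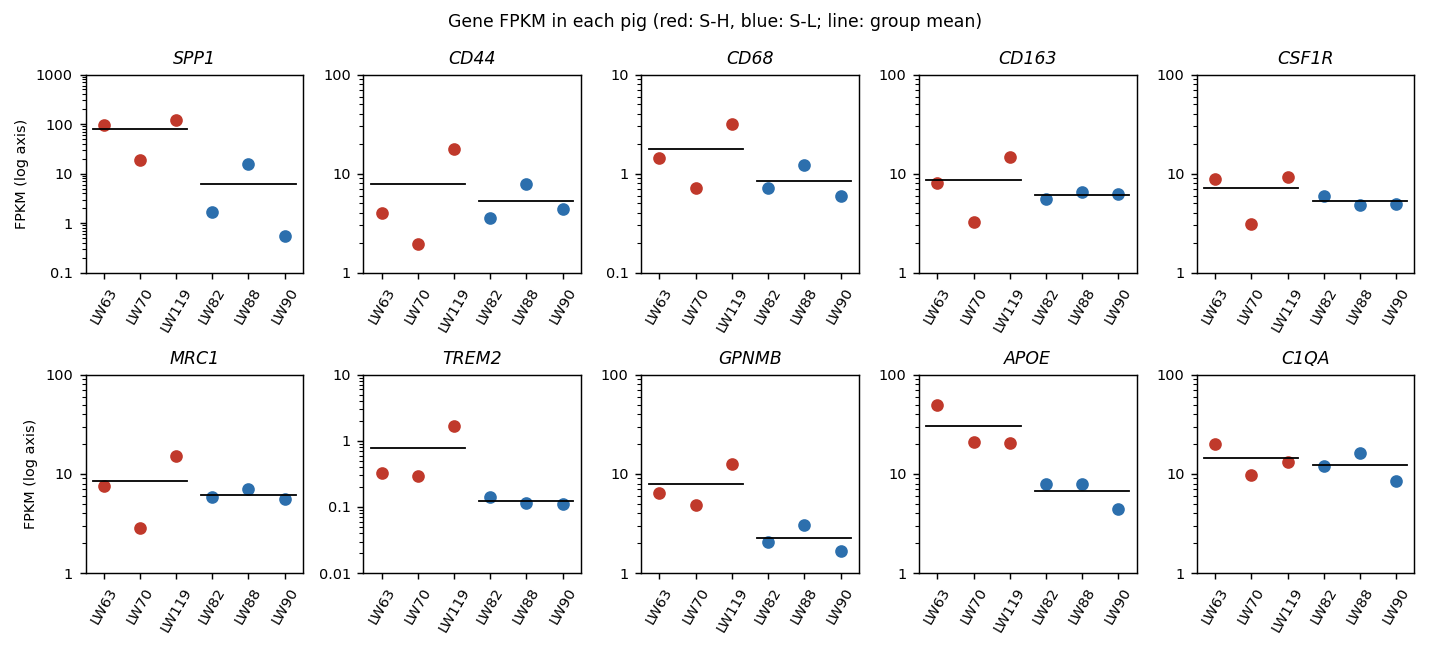
FPKM of the 10 genes in each pig on a log axis, 1 panel a gene, with S-H pigs in red, S-L pigs in blue and the group means as lines. SPP1, TREM2, GPNMB and APOE have no overlap between the groups, while LW70 is the lowest of the 6 pigs for CD44, CD163, CSF1R and MRC1. The GPNMB level of LW70 includes GPNMB-204, without which it would lie below LW82 and LW88.

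The log2 fold change of SPP1 was 4.53, and 0 of the tested genes had a larger one. The next genes with a symbol among those called were LARP6, with 0.694 to 2.06 FPKM in S-H and listed at 0 in every S-L pig, then LGALS12 with 3.68 and ZRSR2 with 3.10. Leaving out single pigs gave SPP1 log2 fold changes between 3.53 without LW90 and 5.83 without LW88. Of the 3 annotated transcripts of SPP1, 1 (SPP1-201) was above 0 and carried the whole level in each pig.

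None of the neighbours and relatives of SPP1 that could be tested was called. IBSP and MEPE, which like SPP1 code for acidic phosphoproteins of mineralized tissue, were listed at 0 in all 6 pigs. DMP1, from the same family, lay between 4.86 and 7.53 FPKM in S-H and between 3.64 and 6.46 FPKM in S-L. DSPP lay between 0.799 and 2.82 FPKM in S-H and between 0.645 and 3.57 FPKM in S-L. The annotated span of DSPP lies within that of DMP1. SPARCL1, at 39.6 to 139.9 FPKM, lies inside both spans. How far reads of SPARCL1 enter the levels of DMP1 and DSPP was not tested. PKD2, ABCG2, SPARCL1, HERC5 and PPM1K, which lie near SPP1 on chromosome 8, had log2 fold changes between -0.35 (HERC5) and 0.74 (PPM1K). Of the 9 genes on this list 7 were tested and none was called by limma, with 0 at an unadjusted p below 0.05. Their median log2 fold change was 0.25, beside 0.19 for all tested genes.

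CD44, a receptor of osteopontin, lies on chromosome 2 from 25788704 to 25884153. It had 3.996 FPKM in LW63, 1.95 FPKM in LW70 and 17.7 FPKM in LW119, against 3.56 FPKM in LW82, 7.83 FPKM in LW88 and 4.40 FPKM in LW90. LW119 was the highest pig and LW70 the lowest, so that the S-H group spanned the whole range of S-L. The log2 fold change was 0.06 (SE 0.69, p of 0.927 by limma, 0.986 when adjusted), and it was -0.81 without LW119 and 0.75 without LW70. The sign also turned without LW82 (-0.17) and without LW90 (-0.02), and with size factors (-0.12). Most of the CD44 level came from CD44-201, with 12.2 FPKM in LW119, and a transcript assembled from the reads (TCONS_00154663) gave 4.36 FPKM in that pig.

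The integrins that bind osteopontin were examined with CD44. Of 10 receptor genes, CD44 included, none was called by limma and 1 had an unadjusted p below 0.05, with a median log2 fold change of 0.18. That gene was ITGB6, the beta subunit of an epithelial integrin, at 7.41 to 10.1 FPKM in S-H and 3.40 to 5.84 FPKM in S-L. ITGB1, the common beta chain, had the highest level among them, from 22.7 to 62.2 FPKM in S-H and from 19.8 to 30.9 FPKM in S-L. ITGB5 had 10.8 to 18.2 FPKM in S-H and 9.95 to 12.8 FPKM in S-L. LW119 was the highest pig for 7 of the 10 receptor genes, which held for 29.4% of all tested genes.

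Enzymes that cleave, crosslink or phosphorylate osteopontin were not called either, in 0 of 6 tested genes by limma and with 0 at an unadjusted p below 0.05, and their median log2 fold change was 0.33. MMP2, a matrix metalloproteinase, had 19.1 to 29.2 FPKM in S-H and 21.5 to 33.4 FPKM in S-L. TGM2, a transglutaminase, had 3.10 to 6.58 FPKM in S-H and 3.30 to 6.02 FPKM in S-L. MMP7 was listed at 0 in every pig.

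APOE and GPNMB were the genes beside SPP1 that passed the thresholds, 2 of the 9 other genes, where 0.931% of all tested genes were called higher in S-H. APOE, GPNMB and TREM2 also separated the groups fully, as 11.9% of all tested genes did in this direction. For GPNMB this rested on a transcript, GPNMB-204, that was above 0 in LW70 only. CD68 was higher in S-H by its mean, with overlapping groups. CD163, CSF1R, MRC1 and C1QA had log2 fold changes between 0.18 and 0.29, close to the median of all tested genes.

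APOE codes for apolipoprotein E, a lipid carrier that macrophages and fat cells secrete. It lies on chromosome 6 from 51372259 to 51377794. Its level was 49.5 FPKM in LW63, 21.2 FPKM in LW70 and 20.4 FPKM in LW119, against 7.89 FPKM in LW82, 7.90 FPKM in LW88 and 4.38 FPKM in LW90. The lowest S-H pig was well above the highest S-L pig, and LW63 stood above the other two S-H pigs. The mean of S-H was 30.4 ± 16.5 FPKM (SD, n = 3) while that of S-L was 6.72 ± 2.03 FPKM (SD, n = 3). The log2 fold change was 2.08 (SE 0.39), and limma gave a p of 0.000467, which was 0.313 when adjusted. It stayed between 1.67 and 2.30 when single pigs were left out, and APOE was called in all 6 of these fits.

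GPNMB, a membrane glycoprotein of lysosomes and phagocytes, lies on chromosome 9 from 92037423 to 92118040. It had 6.36 FPKM in LW63, 4.88 FPKM in LW70 and 12.7 FPKM in LW119, against 2.08 FPKM in LW82, 3.08 FPKM in LW88 and 1.66 FPKM in LW90. All S-H pigs were above all S-L pigs, and LW119 was the highest. The log2 fold change was 1.70 (SE 0.39), and limma gave a p of 0.00187, which was 0.555 when adjusted. It stayed between 1.30 and 1.99 when single pigs were left out. The call was lost when the transcript with the highest mean, GPNMB-203, stood for the gene (log2 fold change 1.31, p of 0.0913 by limma). In LW70 the largest part of the GPNMB level, 2.92 FPKM, was assigned to GPNMB-204, which was at 0 in the other 5 pigs.

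TREM2, a lipid-sensing receptor of macrophages, lies on chromosome 7 from 36464034 to 36471516 and was the weakest of the 10 genes. It had 0.330 FPKM in LW63, 0.290 FPKM in LW70 and 1.70 FPKM in LW119, against 0.142 FPKM in LW82, 0.114 FPKM in LW88 and 0.110 FPKM in LW90. The groups did not overlap, but LW63 and LW70 lay far nearer to the S-L pigs than to LW119. The log2 fold change of 1.60 (SE 0.58, p of 0.0231 by limma, 0.649 when adjusted) stayed short of the p of 0.01 needed for a call. Without LW119 it was 0.88 (p of 0.0786 by limma), and with a pseudocount of 1 it was 0.57, since the levels are low.

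**Figure D2:**
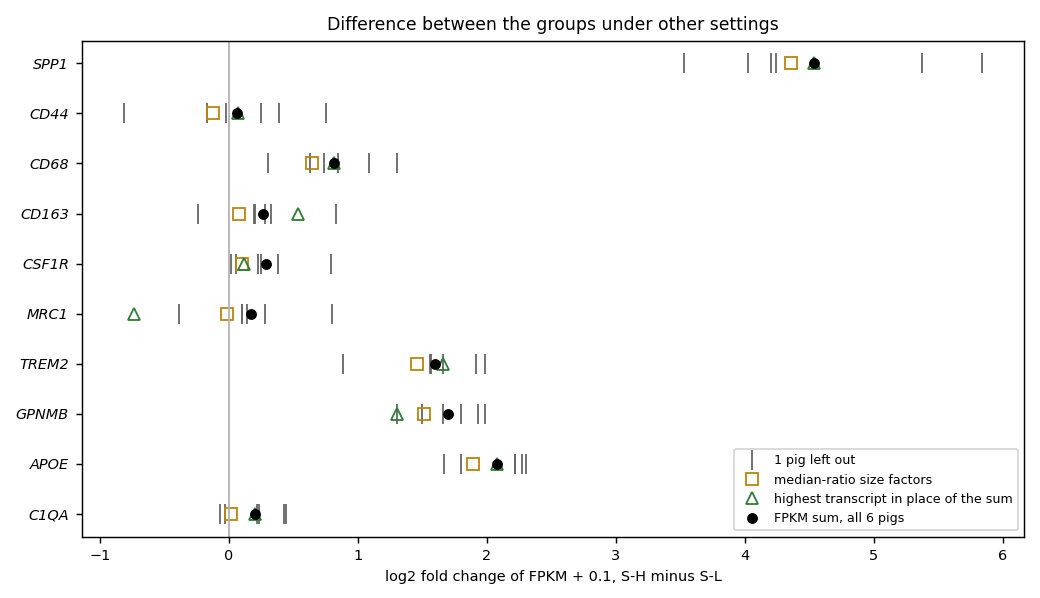
Log2 fold change of FPKM + 0.1 (S-H minus S-L) for the 10 genes, as the main value (black), with 1 pig left out (bars), with median-ratio size factors (squares) and with the highest transcript in place of the sum (triangles). SPP1, APOE, GPNMB, TREM2, CD68 and CSF1R stay above 0 in each of them, while the values of CD44, CD163, MRC1 and C1QA fall on both sides of 0.

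CD68, a lysosomal glycoprotein of macrophages, lies on chromosome 12 from 52874785 to 52877695. It had 1.44 FPKM in LW63, 0.718 FPKM in LW70 and 3.14 FPKM in LW119, against 0.711 FPKM in LW82, 1.21 FPKM in LW88 and 0.600 FPKM in LW90. The groups overlapped, because LW88 was above LW70. The log2 fold change was 0.82 (SE 0.50, p of 0.139 by limma, 0.710 when adjusted), with 0.31 without LW119 and 1.30 without LW70.

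CD163, the scavenger receptor for haemoglobin bound to haptoglobin, lies on chromosome 5 from 63300146 to 63334498. It had 7.995 FPKM in LW63, 3.28 FPKM in LW70 and 14.8 FPKM in LW119, against 5.51 FPKM in LW82, 6.58 FPKM in LW88 and 6.17 FPKM in LW90. The 3 S-L pigs lay close together inside the range of the S-H pigs. S-H and S-L differed by a log2 fold change of 0.27 (SE 0.47, p of 0.583 by limma) and turned to -0.24 without LW119.

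MRC1, the mannose receptor, lies on chromosome 10 from 44107072 to 44244410. It had 7.63 FPKM in LW63, 2.83 FPKM in LW70 and 15.1 FPKM in LW119, against 5.81 FPKM in LW82, 7.09 FPKM in LW88 and 5.55 FPKM in LW90. This is the order of CD163 in 4 of the 6 pigs, with LW119 on top, LW63 next and LW70 at the bottom. S-H minus S-L gave a log2 fold change of 0.18 (SE 0.51, p of 0.740 by limma), with -0.38 without LW119 and -0.01 with size factors. Its transcripts differed in 1 pig, since MRC1-201 had 12.9 FPKM in LW119 and 0 in the other 5 pigs. MRC1-203 was lowest in LW119, at 2.22 FPKM, and lay between 2.83 and 7.55 FPKM in the others. With MRC1-203 alone the log2 fold change was -0.73 (p of 0.161 by limma).

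CSF1R, the receptor for the growth factors CSF1 and IL34 on which macrophages depend, lies on chromosome 2 from 151102138 to 151147634. It had 8.88 FPKM in LW63, 3.11 FPKM in LW70 and 9.35 FPKM in LW119, against 5.96 FPKM in LW82, 4.80 FPKM in LW88 and 4.95 FPKM in LW90. A pair of S-H pigs was above every S-L pig and LW70 was below every S-L pig. S-H minus S-L gave a log2 fold change of 0.29 (SE 0.41, p of 0.497 by limma), with 0.02 without LW119. Without LW70 it was 0.79 (p of 0.0155 by limma). The level was shared by CSF1R-203, the only one of this pair in LW63 and LW82, and CSF1R-204, which was the larger of the pair in LW119 and LW88.

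**Figure D3:**
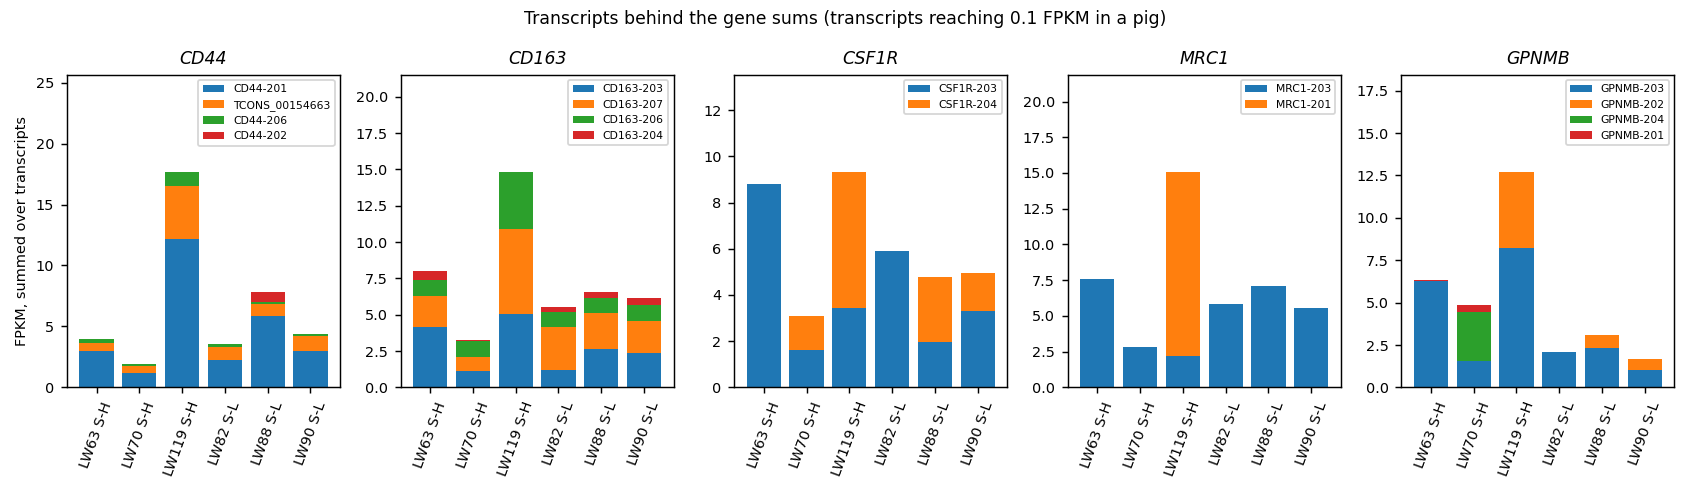
FPKM of the transcripts of CD44, CD163, CSF1R, MRC1 and GPNMB in each pig, stacked to the gene level, for transcripts that reach 0.1 FPKM in a pig. MRC1-201 appears in LW119 only, where it makes up most of the bar, and GPNMB-204 in LW70 only.

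C1QA, a chain of the complement protein C1q that tissue macrophages make, lies on chromosome 6 from 80586280 to 80589939. It had 20.0 FPKM in LW63, 9.81 FPKM in LW70 and 13.2 FPKM in LW119, against 12.1 FPKM in LW82, 16.3 FPKM in LW88 and 8.53 FPKM in LW90. The pigs of the 2 groups were interleaved, and the highest pig had 2.34 times the level of the lowest, the smallest such ratio of the 10 genes. S-H minus S-L gave a log2 fold change of 0.21 (SE 0.34, p of 0.556 by limma), with -0.06 without LW63 and -0.03 without LW90. C1QB, the partner chain, lay between 5.94 and 12.4 FPKM in S-H and between 5.82 and 13.2 FPKM in S-L, and is named here after its values were seen. Of 9 tested genes on the list of C1q and classical complement none was called by limma and 0 had an unadjusted p below 0.05, with a median log2 fold change of 0.22. CFD, a fat cell product also called adipsin, had 95.7 to 193.1 FPKM in S-H and 97.1 to 130.2 FPKM in S-L. SERPING1, the inhibitor of C1, had 27.8 to 55.9 FPKM in S-H and 28.3 to 43.1 FPKM in S-L.

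The order of the 10 levels differed between the groups. By mean FPKM in S-L, C1QA came first (12.3 FPKM), followed by APOE, MRC1, CD163, SPP1, CD44 and CSF1R, all between 5.24 and 6.72 FPKM with overlapping pigs. GPNMB (2.27 FPKM), CD68 (0.840 FPKM) and TREM2 (0.122 FPKM) came below by mean, each with all 3 pigs under those of the gene before. The S-L mean of SPP1 rested on LW88 (15.9 FPKM). SPP1 was below GPNMB in LW82 (1.65 against 2.08 FPKM) and in LW90 (0.556 against 1.66 FPKM). In LW90 it was also below CD68 (0.600 FPKM). In S-H, SPP1 (79.7 FPKM) came first and APOE (30.4 FPKM) next, with overlapping pigs, then C1QA (14.3 FPKM). CD163, MRC1, GPNMB, CD44 and CSF1R had means between 7.11 and 8.71 FPKM in S-H with overlapping pigs, and CD68 (1.77 FPKM) and TREM2 (0.772 FPKM) were again the lowest.

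**Figure D4:**
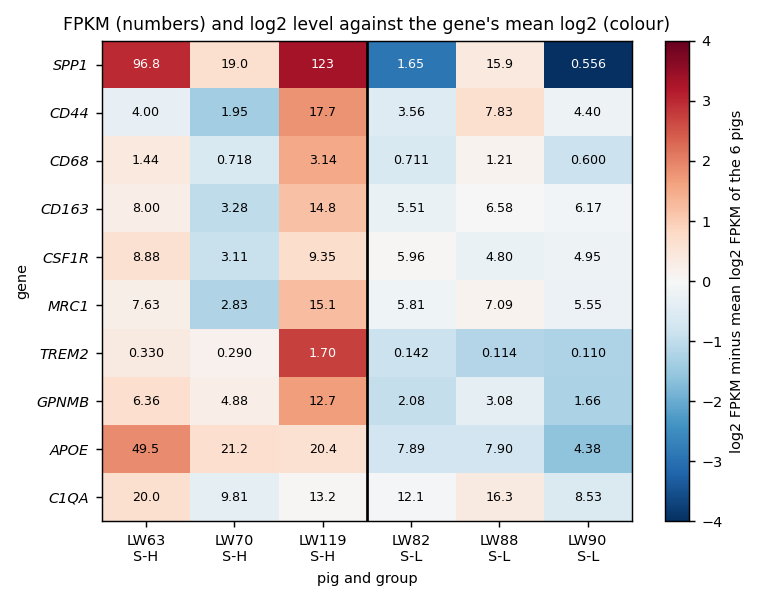
FPKM of the 10 genes in the 6 pigs (numbers), coloured by the log2 level relative to the mean log2 level of the gene over the pigs. LW119 is the highest pig for 8 of the 10 genes, and APOE and C1QA are highest in LW63.

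LW119 was the highest of the 6 pigs for 8 of the 10 genes, where 29.4% of all tested genes were highest in this pig. LW63 was highest for the other two, APOE and C1QA (22.5% of all tested genes), and among the top 2 pigs for 9 of the 10. LW90 was lowest for 6 genes (SPP1, CD68, TREM2, GPNMB, APOE and C1QA) and LW70 for the other 4. Shares of all tested genes were not computed for the lowest pig or for the top 2 pigs. The median-ratio size factor was lowest in LW90 (0.828), with 0.963 in LW70, 1.12 in LW63 and 1.13 in LW119. Levels across the whole library were thus low in LW90. The spread within S-H was wide. LW70 was above every S-L pig for APOE and, with GPNMB-204 counted, for GPNMB, together with the lowest levels of CD163, MRC1, CSF1R and CD44. The summed level of 6 genes carried by leukocytes in general moved with LW119 too, reaching 59.0 FPKM there, with 38.9 FPKM for LW63 and 25.3 FPKM for LW70, against 19.3 to 25.8 FPKM in S-L. None of these 6 genes was called by limma and 1, LAPTM5, had an unadjusted p below 0.05. LAPTM5, a lysosomal protein of blood cells, had 13.5 to 18.3 FPKM in S-H and 7.83 to 10.5 FPKM in S-L, and CD53, a leukocyte tetraspanin, had 3.93 to 14.6 FPKM in S-H and 4.07 to 5.20 FPKM in S-L. The summed level of 8 neutrophil genes was 32.6 FPKM in LW119 and 1.28 to 5.23 FPKM in the other 5 pigs. Most of the sum in LW119 came from S100A12 (12.2 FPKM), S100A8 (9.94 FPKM) and S100A9 (8.90 FPKM). The other genes of that list had no more than 0.742 FPKM in LW119. The part of leukocyte content in the levels of the 10 genes was not tested.

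Ratios of 2 genes within a pig do not depend on the scaling of the libraries. SPP1 had 67.3, 26.5 and 39.2 times the FPKM of CD68 in LW63, LW70 and LW119. In LW82, LW88 and LW90 the ratio was 2.32, 13.1 and 0.926. The ratios of SPP1 to CD44, CD68, CD163, CSF1R, MRC1 and C1QA did not overlap between the groups, which follows in part from the choice of SPP1 for its difference. Those to TREM2 (65.7 to 293.1 in S-H, 5.04 to 139.6 in S-L), GPNMB (3.90 to 15.2 and 0.336 to 5.17) and APOE (0.896 to 6.03 and 0.127 to 2.01) overlapped. APOE had between 1.55 and 2.47 times the FPKM of C1QA in the S-H pigs and between 0.485 and 0.653 times in the S-L pigs. GPNMB had between 0.716 and 1.57 times the FPKM of CSF1R in S-H and between 0.334 and 0.641 times in S-L. The value of 1.57 belongs to LW70 and includes GPNMB-204. CD163 and MRC1 stayed near each other in each pig, with a ratio between 0.929 and 1.16, although CD163 varied 4.52-fold and MRC1 5.34-fold over the 6 pigs. These ratios were chosen after the values were seen and are given without a test.

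Further macrophage genes were counted from lists. Of 32 genes on a list of macrophage surface and identity genes 28 were tested, 25 of them with a positive log2 fold change, where 11533 of the 16333 tested genes had one. The median log2 fold change was 0.55, beside 0.19 for all tested genes. CTSS, a lysosomal protease, was the gene called higher in S-H, at 17.7 to 21.0 FPKM against 8.02 to 13.1 FPKM in S-L (log2 fold change 1.005, SE 0.26, adjusted p of 0.619 by limma). IRF8 and MAF, transcription factors that also act outside macrophages, had the highest means and log2 fold changes of 0.04 and -0.04. LYZ was listed at 0 in every pig. The summed level of the list was 137.1 to 178.1 FPKM in S-H and 111.5 to 124.5 FPKM in S-L, and LW119 was the highest pig for 17 of the 28 genes.

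A list of genes of lipid-laden macrophages includes lysosomal and lipid-handling genes used by many cells. On it 3 of 24 tested genes were called higher in S-H and none was called lower. Of all tested genes 0.931% were called higher and 0.318% lower. A positive log2 fold change was found for 21 of the 24, where 11533 of the 16333 tested genes had one. The median log2 fold change was 0.69. CTSL, a lysosomal protease, had 3.39 to 9.58 FPKM in S-H and 1.07 to 3.06 FPKM in S-L (log2 fold change 1.89, SE 0.48, adjusted p of 0.619 by limma). CTSZ, another, had 25.5 to 51.6 FPKM in S-H and 14.3 to 24.5 FPKM in S-L (log2 fold change 1.08, SE 0.32, adjusted p of 0.649 by limma). FABP4, the fatty acid binding protein of fat cells and of some macrophages, had 238.9 to 564.0 FPKM in S-H and 126.7 to 196.4 FPKM in S-L (log2 fold change 1.33, SE 0.35, adjusted p of 0.628 by limma). With size factors CTSS, CTSZ and FABP4 were no longer called. CTSS, CTSL and CTSZ lost their calls with the highest transcript, CTSS with a pseudocount of 1, and CTSZ with no minimum mean and without the variance trend. Single pigs also decided these calls, as each of CTSS, CTSL, CTSZ and FABP4 lost its call without LW63 and without LW90, with log2 fold changes from 0.87 (CTSS without LW90) to 1.74 (CTSL without LW63). CTSL and CTSZ also lost it without LW119 or LW82, CTSS without LW70 or LW82, and FABP4 without LW70 or LW88. Over all lists 12 genes were called, against 3 without LW90, 6 without LW63 and 20 without LW70. Among all tested genes 204 of 16333 were called (1.25%), against 134 without LW90, 135 without LW63 and 274 without LW70, so the number moved there too.

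The growth factors of macrophages were not called, in 0 of 5 tested genes of the CSF1 axis by limma and with 0 at an unadjusted p below 0.05, and their median log2 fold change was 0.28. CSF1 had 3.47 to 7.26 FPKM in S-H and 3.54 to 7.57 FPKM in S-L, and IL34 had 2.92 to 5.68 FPKM in S-H and 1.99 to 3.47 FPKM in S-L. Among macrophage cytokines and chemokines 0 of 14 tested genes were called by limma and 1 had an unadjusted p below 0.05, with a median log2 fold change of 0.42. The chemokines CCL4 and CCL3L1 had the highest levels of that list, with 149.6 to 703.2 FPKM of CCL4 in S-H and 240.4 to 385.9 FPKM in S-L, and with 49.0 to 188.1 FPKM of CCL3L1 in S-H and 78.6 to 135.8 FPKM in S-L. They belong to a family of near-identical copies, and the counting could split their reads.

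The receptors of apolipoprotein E and the genes of lipid export were examined beside APOE. None of 12 tested genes was called by limma and 2 had an unadjusted p below 0.05, and the median log2 fold change was -0.03, below that of all tested genes. APOD, another apolipoprotein, had 28.5 FPKM in LW119, 76.9 FPKM in LW70 and 150.6 FPKM in LW63, while S-L held 135.8 to 199.2 FPKM (log2 fold change -1.29, SE 0.52, p of 0.0342 by limma). VLDLR, a receptor of apolipoprotein E in muscle, had 31.3 to 33.0 FPKM in S-H and 31.0 to 39.1 FPKM in S-L.

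Fat cells also express APOE and FABP4, and a list of fat cell genes was therefore counted. Of 10 fat cell genes 5 were called higher in S-H and none lower, where 0.931% and 0.318% of all tested genes were. The median log2 fold change was 1.28, beside 0.19 for all tested genes. The summed level was 382.7 to 1013 FPKM in S-H and 293.0 to 340.7 FPKM in S-L. The adipocyte sum was highest in LW63, as APOE was, and lowest among the S-H pigs in LW119, where SPP1, GPNMB and TREM2 were highest. Within S-L the sum was highest in LW90 (340.7 FPKM), where APOE was the lowest of the 6 pigs (4.38 FPKM). The called genes with the largest change were DGAT2, PLIN1, CIDEC and ADIPOQ, with log2 fold changes of 2.25, 2.04, 2.02 and 1.90 and adjusted p between 0.557 and 0.639 from limma. ADIPOQ lost its call with size factors (1.71), with no minimum mean, without the variance trend, with the highest transcript, and without LW63 (1.30), LW88 (1.998) or LW90 (1.48). DGAT2 lost it with the highest transcript and without LW63 (1.86), LW119 (2.01) or LW90 (1.78), and CIDEC without LW90 (1.67). PLIN4, PNPLA2, AGPAT2 and GPD1, of the same list, overlapped between the groups and are named here after their values were seen. The part of fat cell content in the APOE difference was not tested.

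**Figure D5:**
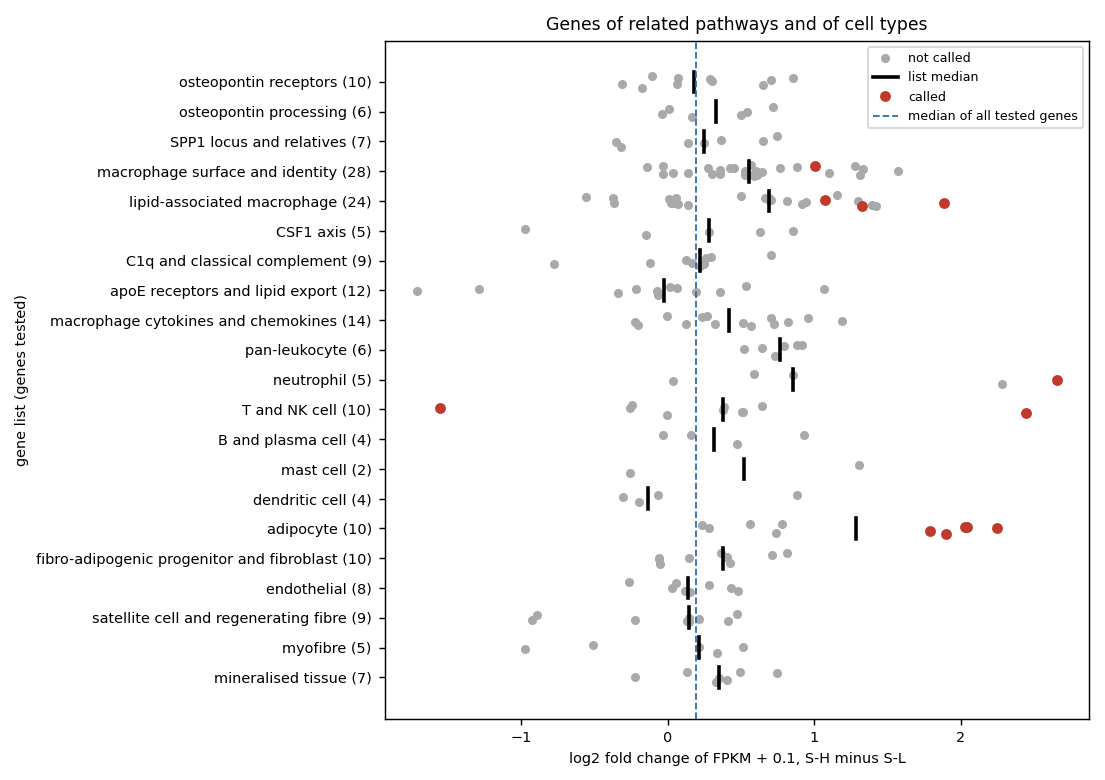
Log2 fold change of FPKM + 0.1 (S-H minus S-L) for the tested genes of each list, with called genes in red, the list median as a black bar and the median of all tested genes (0.19) as a dashed line. The medians of most lists lie to the right of the dashed line. Among them are the macrophage, lipid-laden macrophage, leukocyte, neutrophil and adipocyte lists, at 0.55, 0.69, 0.76, 0.85 and 1.28. To its left lie osteopontin receptors (0.18), satellite cells and regenerating fibres (0.14), endothelium (0.13), apolipoprotein E receptors (-0.03) and dendritic cells (-0.13).

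Markers of mineralized tissue were examined because osteopontin is a bone protein. Of 7 tested genes none was called by limma and 1 had an unadjusted p below 0.05, with a median log2 fold change of 0.35. SP7, the osteoblast factor, was below the minimum for testing, at no more than 0.152 FPKM in any pig. BGLAP, osteocalcin, lay between 0.381 and 1.68 FPKM in S-H and between 0.477 and 1.37 FPKM in S-L. The most abundant genes of that list, which fibroblasts and vessels also express, were SPARC, at 134.0 to 186.2 FPKM in S-H and 110.3 to 122.0 FPKM in S-L, and MGP, at 87.2 to 162.4 FPKM in S-H and 65.5 to 75.7 FPKM in S-L. SP7 and BGLAP are named here after their values were seen.

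Over the 6 pigs, SPP1 was most like FEN1, GNL3L, NUP133, FDPS and CRTAP among 9828 genes with a symbol and a mean of at least 1 FPKM, with a Pearson r on log2(FPKM + 0.1) between 0.991 and 0.998. These genes had a far smaller range than SPP1, for example 1.83 to 3.70 FPKM for FEN1, an endonuclease of DNA replication, and 8.17 to 12.5 FPKM for GNL3L, a GTPase of the nucleolus. Of the 9828 genes, 442 had an r above 0.9, so that such values were common with 6 pigs. Among the 9 other genes described here, GPNMB was the nearest to SPP1 (r of 0.94, rank 189 among the compared genes), followed by APOE (0.86) and CD68 (0.83), and CD44 was the farthest (0.40). When deviations from the group means were used, the r was 0.80 for GPNMB, 0.79 for CD68, 0.84 for C1QA, 0.65 for CD44, 0.63 for MRC1, 0.55 for CD163, 0.51 for APOE, 0.46 for CSF1R and 0.33 for TREM2, so that the order differed and TREM2 was the farthest. The group difference for which SPP1 was picked is part of the first set of values, and all points share the same 6 libraries.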

How the data were processed

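The authors prepared strand-specific libraries without ribosomal RNA from the LD muscle of 6 pigs, cleaned the reads, mapped them with Hisat2 and used StringTie for assembly and expression levels, on Sscrofa11.1. Tool versions are not given in the sources used here. The deposited table gives FPKM for 83119 transcripts in the 6 pigs. Judged from its values, the 21104 Ensembl transcripts that lack a symbol hold TPM, and each pig's were multiplied by a factor computed from the table (0.639 to 0.847). The 10 genes described have all transcripts in FPKM as deposited.

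Gene levels were sums over the transcripts of a gene ID. Symbols came from the file for 16554 genes, from an Ensembl symbol table for 822 genes and, for 8 list genes, from a reciprocal overlap of at least 50% with RefSeq genes of Sscrofa11.1. Of 244 list genes, 224 were found. Genes with a mean of at least 0.1 FPKM were tested by limma (version 3.58.1, R version 4.3.3) on the log2(FPKM + 0.1) scale, allowing the variance to follow the mean, with Benjamini-Hochberg adjustment over every gene tested. The fit was tested on simulated data. Tables were made with pandas 2.3.3 and numpy 2.4.6 under Python 3.11.15, and figures with matplotlib 3.10.9. The study gives read numbers per library, but counts per gene are unknown here, so precision rests on the spread among 3 pigs per group.

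The genes and lists were chosen with earlier results of these data known, and the lists were written from general knowledge. Named were the 10 genes, the SPP1 locus list, up to 4 called genes per list or, where fewer than 2 were called, also the 2 most abundant, the 3 called genes next to SPP1 and the 5 genes most like it. Alternatives changed the pseudocount (1 and 0.01), the minimum mean (none and 1 FPKM) or the unit (size factors, TPM), kept only genes with a symbol, dropped the variance trend, took the highest transcript for the gene, or left out each pig.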

Additional observations from a re-analysis of the deposited data

How the results depend on the processing

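APOE was called in every setting and GPNMB in all but the highest transcript, so that 1 of the 9 genes beside SPP1 was called there against 2 otherwise. The log2 fold change of SPP1 lay between 3.53 and 5.83 with a pig left out. Of all tested genes 204 were called, against 81 with a pseudocount of 1, 118 with a mean of at least 1 FPKM, and 134 to 297 with a pig left out. TREM2 has too low a mean for the minimum of 1 FPKM. Of list genes 12 were called, against 7 with the highest transcript, where 169 of all tested genes were called, and 3 to 20 with a pig left out. No paired analysis was possible because no pig of S-H has a partner in S-L, and replicate numbers followed accession order only. With 3 pigs a group, without counts, small differences could not be resolved.

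The sign of the log2 fold change turned for S100A8 with a pseudocount of 0.01 (-0.38). With size factors it turned for CD44 (-0.12), MRC1 (-0.013), TGM2 (-0.023), DSPP (-0.042), IRF8 (-0.15), ESAM (-0.039), MYOG (-0.046) and MYH8 (-0.060). With TPM it turned for MMP2 (0.091), MAF (0.098), VLDLR (0.059), CCL4 (0.13), JCHAIN (0.099) and DCN (0.076). With the highest transcript it turned for MRC1 (-0.73), ITGB1 (-1.11), HERC5 (0.68), VLDLR (0.086), CCL4 (4.73) and JCHAIN (1.80). The cause was not tested.

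With a pig left out, values fell on both sides of 0 for C1QA (-0.064 to 0.45), CD163 (-0.24 to 0.83), CD44 (-0.81 to 0.75), MRC1 (-0.38 to 0.80), CCL3L1 (-0.80 to 0.17), CCL4 (-0.59 to 0.52), CFD (-0.0068 to 0.50), CKM (-0.037 to 0.45), CSF1 (-0.46 to 0.10), DCN (-0.36 to 0.20), DSPP (-0.38 to 0.77), HERC5 (-0.73 to 0.074), IRF8 (-0.17 to 0.15), JCHAIN (-0.20 to 0.14), MAF (-0.24 to 0.070), MMP2 (-0.17 to 0.16), MS4A2 (-0.77 to 0.019), MYH8 (-0.14 to 0.52), MYOG (-0.17 to 0.56), S100A8 (-1.40 to 1.93), SPARCL1 (-0.66 to 0.25), TGM2 (-0.050 to 0.48) and VLDLR (-0.14 to 0.023).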

Other observations

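S100A12, a calcium-binding protein of neutrophils, was called higher in S-H, with 3.70 FPKM in LW63, 2.35 FPKM in LW70 and 12.2 FPKM in LW119 against 0.292 to 1.07 FPKM in S-L. S100A8 and S100A9, its relatives, were highest in LW119 at 9.94 and 8.90 FPKM, and no other pig had more than 0.756 FPKM of either. Of 10 genes of T and NK cells 1 was called higher in S-H and 1 lower, where 0.931% and 0.318% of all tested genes were. CD247, the zeta chain of the T cell receptor, was higher (0.936 to 4.85 FPKM against 0.139 to 0.427 FPKM, adjusted p of 0.583 by limma). KLRB1, a receptor of NK cells, was lower (0 to 0.0826 FPKM against 0.213 to 0.532 FPKM, adjusted p of 0.649 by limma). CD3D, CD3E and CD3G, other chains of that receptor complex, were not called, with log2 fold changes of 0.37, 0.50 and -0.006. The KLRB1 call was lost with a pseudocount of 1 or 0.01, with the highest transcript and without any 1 pig except LW82, with log2 fold changes from -1.71 to -1.28 in these 5 fits. CD247 lost its call with a pseudocount of 1 (1.21), without LW88 (2.19) and without LW90 (2.39). CD79A, from the B cell receptor, had 116.0 to 145.0 FPKM in S-H and 88.9 to 100.4 FPKM in S-L and was not called, as none of 4 tested B and plasma cell genes was by limma, with 0 at an unadjusted p below 0.05. The median log2 fold change was 0.38 for T and NK cells and 0.31 for B and plasma cells.

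None of 10 genes of fibro-adipogenic progenitors and fibroblasts, 8 of endothelium, 4 of dendritic cells, 2 of mast cells, 9 of satellite cells and regenerating fibres and 5 of myofibres was called by limma, with 0, 0, 0, 1, 1 and 1 of them at an unadjusted p below 0.05. The median log2 fold changes were 0.38, 0.13, -0.13, 0.52, 0.14 and 0.21 in the same order.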
